A study of Mus musculus with 2 samples.

Results

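Fibroblast nuclei around the retina are described here: 890 of the 16867 nuclei kept from 1 section of mouse eye tissue, or 5.28% (95% interval 4.94 to 5.62%). They were chosen on measured values. A barcode was a member when it had at least 200 detected genes and under 10% of its UMIs (counted molecules) from mitochondrial genes, and when Col1a1, Col1a2, Col3a1, Dcn, Lum and Pdgfra together reached at least 5 UMIs and at least 0.3% of its UMIs. The endothelial and muscle genes Cdh5, Pecam1, Ttn and Myh11 together had to stay at or below 2 UMIs. Every other kept barcode, 15977 in all, lay outside the rule.

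The series used SeekSpace, which gives single nuclei of a frozen section both an expression profile and a place on a capture chip. Both libraries, 1 of expression and 1 of spatial barcodes, carry the name T1 and come, per the labels, from a 10 micrometre section of 1 untreated C57BL/6J eye. The series design sets mice with 1 missense allele of Prph2, on the C57BL/6J background, against wild types matched for age and sex, and took tissue for spatial profiling at 6 months. The genotype of T1 is not stated, so T1 has no group and none was inferred from its values. There was 1 library and therefore no replicate, since nuclei of 1 section cannot serve as such, and no p-values are given. All intervals are 95% intervals and cover counting error only.

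Fibroblasts build and renew the extracellular matrix. They secrete fibrillar collagens, the proteoglycans that space the fibrils, elastic fibre proteins, and the enzymes that process and crosslink them. Around the eye they form several tissues: the sclera and choroid behind the retina, the stroma of the cornea in front, whose fibroblasts are called keratocytes, the sheaths of nerves and muscles, and the loose tissue of the orbit. Fibroblasts of the outer coat of vessels and of fascia, called adventitial fibroblasts, carry Pi16 and Dpp4 in many organs. Fibroblasts also send growth factors and Wnt ligands to neighbouring cells and make complement proteins.

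Depth and marker values were as follows. The members held 1867753 UMIs, 3.42% of those of all kept nuclei, with a median of 1751 UMIs per nucleus (quartiles 1147 and 2670) and 985 genes. The median over all kept nuclei was 1811 UMIs. Gm42418, a transcript that shares sequence with ribosomal RNA, made up 13.3% of member UMIs. The 8 rod markers summed to 904 CPM (counts of a gene or list as a share of all UMIs of the pooled nuclei, on the usual CPM scale) in members, 489.8 CPM in endothelial, 549 CPM in mural and 742 CPM in adipocyte nuclei, so rod RNA was present in nuclei of all these classes. Nuclei that also met the rod rule were left out of the other classes but kept in members, so the sums are not alike. Among members, the 40 nuclei of subcluster 9, described below, held 9042 CPM and the other subclusters 160 to 607 CPM. Of the members, 53 also met the marker rule of another class, and 17 of these met the rod rule, 12 the rule for myelinating glia and 11 that for melanocytes. Of the 7 markers given with the label, 6 are the genes of the rule and cannot check it, and C3 alone lies outside the rule.

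All levels are given as CPM. CPM is not divided by transcript length, so levels were compared between nuclei and never between genes. Because the 6 rule genes chose the members, their levels are a description. Col1a1, a chain of type I collagen (ENSMUSG00000001506), stood at 4940 CPM (4839 to 5042) in members and at 543 CPM in mural nuclei, the pericytes and smooth muscle cells of vessels. Endothelial nuclei held 48.8 CPM of Col1a1 and adipocyte nuclei 54.5 CPM. A Col1a1 UMI was found in 94.9% of members and in 1.03% of rods, with median depths of 1751 and 1109 UMIs. Col1a2 was detected in 85.7%, the proteoglycan Dcn in 79.3%, Col3a1 in 61.3%, the receptor Pdgfra in 49.1% and the proteoglycan Lum in 24.3% of members. Members differed in how many of the 6 genes they showed: 73 had all 6, 227 had 5, 280 had 4, 211 had 3, 88 had 2 and 11 had 1.

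The median member had 13 UMIs of the rule genes, or 0.801% of its UMIs, and the highest had 341. Just inside the limit, 64 members had 5 such UMIs, and just outside it 84 nuclei that met the other conditions had 4. By share, 106 members lay between 0.3 and 0.4%, and 95 nuclei outside lay between 0.2 and 0.3%. A further 28 nuclei were left out by the endothelial and muscle genes alone.

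C3, the central complement component (ENSMUSG00000024164), was given as a marker but was no part of the rule. It stood at 630.2 CPM (595 to 667) in members, 338 CPM in adipocyte nuclei, 14.9 CPM in endothelial nuclei and 6.14 CPM in mural nuclei. The order of members and adipocyte nuclei was not the same in all 4 tissue pieces described below. In pieces 1 to 4 members stood at 539, 439.5, 169 and 1152 CPM and adipocyte nuclei at 356, 742, 240 and 186 CPM. In piece 3, with 6 C3 UMIs in adipocyte nuclei, the intervals overlapped. Members outside a clump of nuclei in piece 4 stood at 417 CPM. A C3 UMI was found in 30.1% of members (27.1 to 33.2%), 31.8% of adipocyte nuclei and 0.178% of rods. With the 864 members and 170 adipocyte nuclei of sufficient depth thinned to 500 UMIs each, the shares were 16.7% and 11.8%. C3 was thus found in both fibroblast and adipocyte nuclei, and in 268 of 890 members at full depth.

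**Figure D1:**
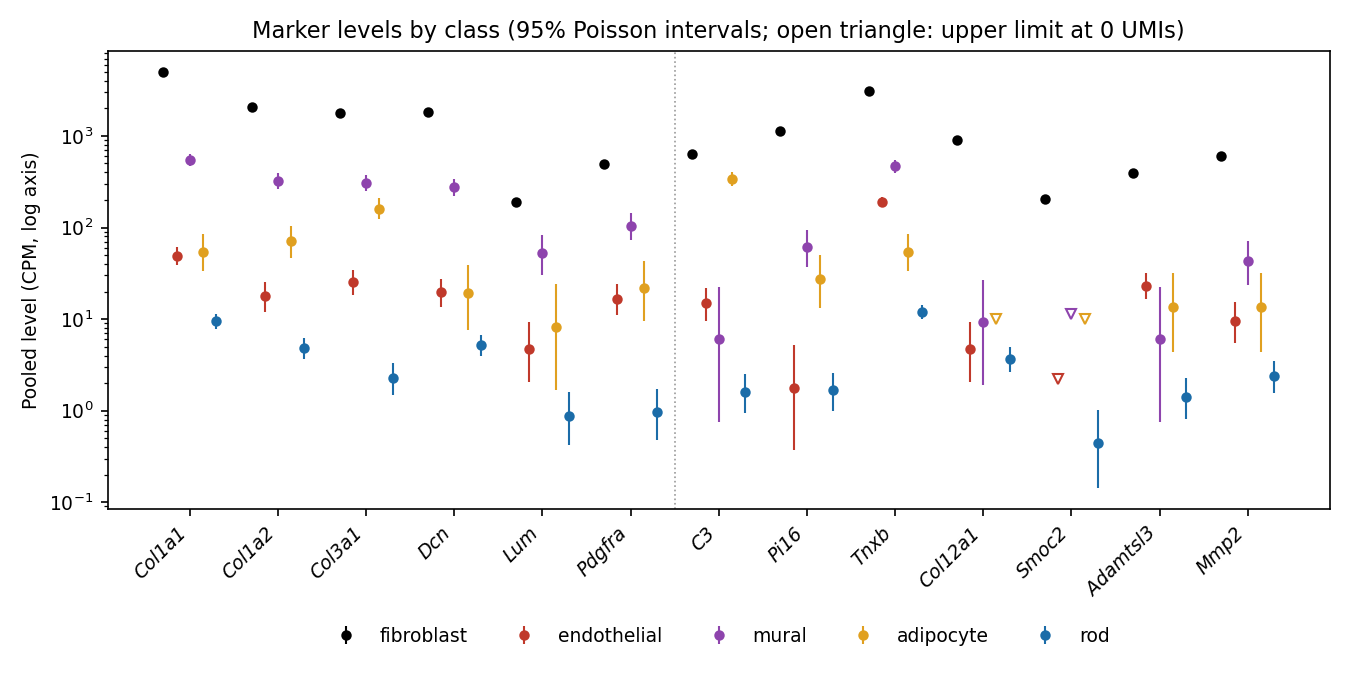
Pooled level (CPM, log axis) of the 6 rule genes, left of the dotted line, and of 7 other genes in fibroblast, endothelial, mural, adipocyte and rod nuclei; points are pooled levels, bars are 95% Poisson intervals and open triangles are upper limits where a class had 0 UMIs. Over all pieces pooled, fibroblast nuclei are highest for every gene drawn, and for C3 the adipocyte nuclei come next at 338 CPM against 630.2 CPM. In pieces 2 and 3, described below, C3 stood higher in adipocyte nuclei.

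Which other genes set members apart was described by a fixed rule. A gene was called higher when the lower bound of its interval in members was at least 2 times the upper bound in each of endothelial (714 nuclei), mural (78) and adipocyte nuclei (170), the 3 classes most like them, and in all other nuclei, with at least 20 UMIs in members. Of 9603 genes that could be called, 159 were higher in members, a background of 1.66%. Members were chosen on this same contrast, so this count is a description. In the other direction, 18 of 2019 genes were lower than in all 3 like classes, a background of 0.892%. They included the fatty acid receptor Cd36, at 1.07 CPM in members and 404 CPM in adipocyte nuclei, and the caveolar protein Cav1, at 26.2 CPM against 521 CPM.

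Among collagens, 3 of 6 fibrillar members outside the rule were higher (Col5a1, Col11a1 and Col24a1). Col5a1, which sets fibril diameter, stood at 1176 CPM in members against 206 CPM in mural nuclei, the next class. The list of fibril-associated and network collagens also holds the transmembrane collagen Col13a1. Of its 13 genes tested, 6 were higher: Col6a1, Col6a2, Col6a3, Col6a6, Col12a1 and Col16a1. Col12a1, which decorates fibril surfaces, had the largest bound ratio of all genes, at 891 CPM (849 to 935) in members against 9.21 CPM (3 UMIs) in mural nuclei. Col6a3, a chain of the microfibrils of type VI collagen, stood at 1036 CPM, 6.89-fold its mural level.

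The other matrix groups gave the following counts. Fmod, Kera and Vcan were higher among 13 proteoglycan genes, and the call for Fmod was lost without the clump of nuclei in piece 4, described below. Among 17 genes of elastic fibres and latent TGF-beta binding, 6 were higher (Fbn1, Fbn2, Fbln1, Emilin2, Mfap4 and Mfap5), with the microfibril protein Fbn1 at 975 CPM, 2.91-fold its mural level. Loxl1, an enzyme that crosslinks elastin, Bmp1 and Adamts2, which trim procollagens, were the 3 of 19 processing genes, and Loxl1 stood at 450.3 CPM, 8.63-fold the mural level. Among 21 genes of the list of proteases, inhibitors and related proteins, Mmp2, Mmp3, Adamtsl3 and Timp2 were higher. The gelatinase Mmp2 stood at 602 CPM, 14.0-fold the mural level. Of 19 basement membrane genes 2 were higher, Nid1 and Col15a1. The call for Col15a1 was lost when subclusters 4 and 9, introduced below, were left out.

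Matricellular proteins, which bind matrix and cells without bearing load, held the largest count of the lists, 9 of 24. These were Fn1, Tnxb, Thbs1, Thbs2, Thbs4, Ccn5, Smoc2, Igfbp2 and Igfbp6. Tenascin-X (Tnxb, ENSMUSG00000033327), which binds collagen fibrils, stood at 3061 CPM (2983 to 3142) against 466 CPM in mural nuclei. Smoc2 stood at 207 CPM with 0 UMIs in endothelial, mural and adipocyte nuclei. Pi16, the adventitial marker, was found in 40.3% of members at 1145 CPM, 18.7-fold the mural level.

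Signalling genes were counted in the same way. Wnt5a, Sfrp2, Sfrp4 and Dkk2 were higher among 16 Wnt ligands and modulators, with the Wnt antagonist Dkk2 at 481 CPM, 6.27-fold the mural level. Fgf7 and Gdf10 were the 2 of 25 growth factors, Tgfbr2 and Egfr the 2 of 21 receptors, and Egfr stood at 966 CPM, 3.03-fold the mural level. Cxcl14 was the 1 of 10 genes of the cytokine and chemokine list, and C1ra and C7 were the 2 of 13 complement genes, while C3 was not called because of the adipocyte level. The calls for Cxcl14 and C7 were lost without subclusters 4 and 9. Those for Tgfbr2, Cxcl14 and C1ra were lost without the clump in piece 4, described below. None of 13 retinoic acid genes was called. Among 29 mesenchymal transcription factors, Lmx1b, Twist1, Osr2 and Runx2 were higher, and the call for Osr2 was lost without the same clump. Lmx1b, a homeobox factor needed for the front of the eye to form, was found in 37.3% of members and 0.178% of rods, at 515 CPM against 70.6 CPM in mural nuclei.

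Over all genes tested the median log2 difference between members and all other nuclei was 0.01. List medians on this scale were 4.35 for fibril-associated and network collagens, 4.11 for complement, 3.98 for fibrillar collagens including the rule genes, 3.54 for matricellular proteins, and 0.81 for guidance cues and receptors, the lowest of the 16 lists. The lists were chosen with results of these data known, so these medians are descriptions.

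Where members lay was not part of the rule. Kept nuclei formed 4 ring-shaped pieces on the chip, although the labels describe 1 section. A circle was fitted to the nuclei of the retinal pigment epithelium (RPE) of each piece, after the map had been seen, and each nucleus was placed by its distance from that circle in chip coordinate units, for which the sources used here give no length. The rim ran from -300 to 500 units at angles with RPE nuclei, the outer tissue lay beyond 500 units, and the gap arc closed the ring, within 1000 units of the circle, over the longest run of angles without RPE nuclei. Positions were not sharp: 91.2% of 443 skeletal muscle nuclei and 82.9% of adipocyte nuclei lay in the outer tissue, but so did 25.2% of rods.

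Members lay along the outside of the ring, in the tissue beyond it and in the gap arc, and hardly inside it. The outer tissue held 422, the rim 308, the gap arc 146 and the remaining area 14. They made up 19.3% of the 758 kept nuclei of the gap arc (16.5 to 22.3%), 9.30% of 4536 in the outer tissue, 4.804% of 6412 at the rim and 0.271% of 5161 elsewhere. In pieces 1 to 4 the share in the gap arc was 43.0, 22.4, 10.1 and 12.6%, and that in the outer tissue 15.2, 7.93, 6.57 and 8.84%. The gap arc had the highest share in every piece, although in pieces 3 and 4 its interval overlapped that of the outer tissue, and in piece 3 that of the rim too. At angles with RPE nuclei, the median member lay 863 units outside the circle (quartiles 147 and 1960), and 92.4% of 738 lay outside it.

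Members lay among each other. Of the 20 nearest kept nuclei of a member, 19.0% on average were members, 3.60 times their share of kept nuclei. The ratio was 4.27, 2.86, 2.98 and 3.84 in pieces 1 to 4. By zone, members made up 38.5% of neighbours in the gap arc, 19.1% in the outer tissue and 10.4% at the rim. Surface epithelium nuclei, 23 in all, were found beside members at 5.85 times their share (1.37, 6.88, 5.37 and 1.48 times in pieces 1 to 4) and macrophage nuclei at 3.12 times (3.29, 1.59, 2.25 and 4.35 times), melanocyte nuclei at 1.72 times and rods at 0.777 times.

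**Figure D2:**
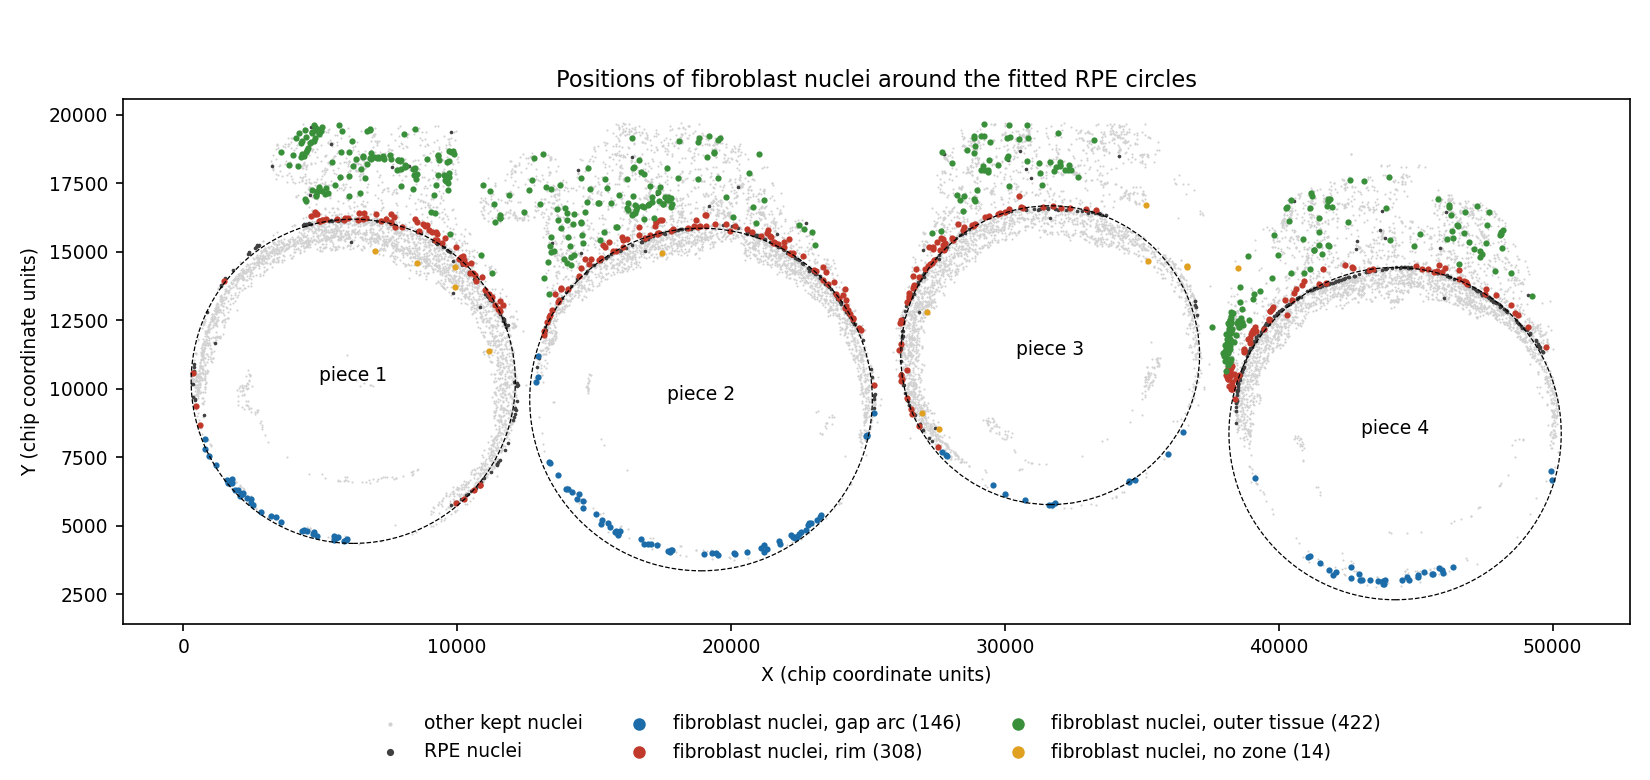
Position of kept nuclei on the chip (both axes in chip coordinate units) with the circle fitted to RPE nuclei in each of 4 pieces; grey points are other kept nuclei, black points RPE nuclei, and coloured points the fibroblast nuclei of the gap arc (146), rim (308), outer tissue (422) and no zone (14). Gap arc members line the lower side of each ring, where RPE nuclei are missing, and a dense group of members lies at the left edge of piece 4.

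Members of the 3 zones were then compared with each other. A zone call asked for a lower bound at least 2 times the upper bound of the other zones, at least 20 UMIs, and the same direction in all 4 pieces. Zones are parts of 1 library, and median depth was 1659 UMIs in the gap arc, 1825 at the rim and 1716.5 in the outer tissue. Against rim and outer tissue together, 179 of 9506 genes were higher in the gap arc (1.88%) and 239 were lower (2.51%). Outer tissue exceeded rim for 109 of 8870 genes (1.23%), and rim exceeded outer tissue for 171 (1.93%).

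Gap arc members were high in Col12a1, Col6a3, Kera and Aldh3a1, and low in Tnxb, C3 and Cxcl12. Col1a1 stood at 11088 CPM (10704 to 11483) there, against 2948 CPM at the rim and 4612 CPM in the outer tissue; as a rule gene it is given as a description. Its gap arc level in pieces 1 to 4 was 16802, 10016, 8052 and 7490 CPM, above every rim and outer value of the same gene, which ran from 2039 to 5469 CPM. Col3a1, also a rule gene, showed the reverse order, at 74.3 CPM (21 UMIs), 1163 CPM and 2816 CPM, the last 2 being 749 and 2198 CPM without the clump of nuclei in piece 4 described below. In the gap arc of pieces 1 to 4 Col3a1 stood at 12.8, 81.9, 347 and 29.0 CPM, each under every rim and outer value of that piece.

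Of 13 fibril-associated and network collagens, 7 were higher in the gap arc: Col6a1, Col6a2, Col6a3, Col8a2, Col12a1, Col13a1 and Col16a1. Col12a1 stood at 4059 CPM (3828 to 4301) against 326 CPM in rim and outer tissue together, 12.5-fold. Col6a3 stood at 3752 CPM, 6.76-fold, Col6a2 at 1955 CPM, 4.14-fold, and Col6a1 at 1326 CPM, 3.54-fold. In the same list Col6a6 and Col14a1 were lower in the gap arc. None of 19 basement membrane genes was higher there and 6 were lower, among them Col15a1, at 24.8 CPM against 446 CPM.

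Kera (keratocan, ENSMUSG00000019932, chromosome 10, 97606962 to 97613688 in RefSeq's GRCm38 annotation) carries keratan sulphate between corneal collagen fibrils. It stood at 350.04 CPM (99 UMIs) in gap arc members, 2.97 CPM (2 UMIs) at the rim and 1.14 CPM (1 UMI) in the outer tissue. In pieces 1 to 4 the gap arc level was 398, 437, 154 and 232 CPM, while 6 of the 8 rim and outer values were 0 and the highest was 10.6 CPM. The other nuclei of the gap arc held 0 Kera UMIs. Aldh3a1, an aldehyde dehydrogenase abundant in the cornea, stood at 1234 CPM in gap arc members, 46.1 CPM at the rim and 56.9 CPM in the outer tissue, with 189 CPM in the other nuclei of the gap arc. Angptl7, a secreted protein of the corneal stroma and the drainage angle, was at 749.6 CPM against 26.8 and 36.4 CPM. Chst5, a sulphotransferase, had 26 UMIs in gap arc members and 0 at the rim and in the outer tissue.

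The keratocyte list as a whole, 8 genes, summed to 3391 CPM in the gap arc with all 8 detected, and to 840.4 and 850.1 CPM at the rim and in the outer tissue. In pieces 1 to 4 the gap arc sum was 4197, 2975, 1926 and 3694 CPM. Of the 8 genes, Kera, Ptgds, Lum, Angptl7 and Cd34 also stand in other marker lists used here. Ptgds and Cd34 were not high in the gap arc, at 77.8 and 53.0 CPM against 180 and 184 CPM at the rim. Several other sums were also highest in the gap arc, that of the tenocyte list at 1980 CPM against 1029 and 205 CPM, and that of trabecular and ciliary stroma at 3387 CPM against 1678 and 566 CPM. The tenocyte gene Scx was at 0 there. Endothelial markers summed to 389 CPM in the gap arc and to 56.5 and 72.8 CPM at the rim and in the outer tissue. Rod markers summed to 1223, 870 and 828 CPM in the same order. The lens crystallin genes Cryaa and Crybb2 were among the genes called higher in the gap arc without the clump in piece 4, described below. The part of endothelial, rod and lens RNA in the gap arc calls was not tested. All 6 surface epithelium markers were at 0 in gap arc members.

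Leading genes of the gap arc beyond the lists included Pou3f3, a POU-domain transcription factor, at 552 CPM against 0 UMIs at the rim and 2.28 CPM in the outer tissue. Its gap arc values in pieces 1 to 4 were 475, 610, 308 and 637 CPM. The protease inhibitor A2m stood at 3564 CPM against 17.8 and 34.1 CPM, and the chondroitin synthase Chsy3 at 4144 CPM against 66.9 and 53.5 CPM. Both varied between pieces: A2m was at 2002, 3193, 925 and 6910 CPM and Chsy3 at 2002, 4803, 1271 and 6591 CPM, each far above rim and outer tissue of the same piece. Rxfp1, the relaxin receptor, stood at 1078 CPM in the gap arc of piece 1 and at 72.8, 38.5 and 232 CPM in the others. A2m is also high in RPE nuclei (809 CPM), whereas Rxfp1 had a level of 0.978 CPM in the other nuclei of the gap arc.

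Wnt genes and patterning factors were called in both directions between the zones. Of 16 Wnt ligands and modulators, 5 were higher in the gap arc (Wnt5a, Wnt11, Dkk2, Axin2 and Apcdd1) and 3 lower (Wnt2b, Sfrp2 and Sfrp4). Wnt5a, a ligand of the non-canonical pathway, stood at 824 CPM against 109 and 55.8 CPM, and in pieces 1 to 4 at 976, 846, 578 and 710 CPM. Axin2, a target and brake of canonical Wnt signalling, stood at 350.04 CPM, 4.05-fold its level in rim and outer tissue together, and Dkk2 at 1634 CPM, 5.95-fold. Among 29 transcription factors, Lmx1b, Tfap2b, Twist1, Twist2, Prrx1 and Runx2 were higher and Tbx15, Osr1, Osr2, Ebf1, Ebf2 and Ebf3 lower. Lmx1b stood at 1821 CPM, 6.43-fold, and Twist1, a factor of cranial mesenchyme, at 601 CPM, 11.5-fold. Ebf1, a factor of mesenchymal and fat precursors, stood at 308 CPM in the gap arc against 2733 CPM in rim and outer tissue together, 8.88-fold lower. The calls for Runx2 and Osr2 were lost without subclusters 4 and 9.

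Matricellular genes went in both directions, with 6 of 24 higher in the gap arc (Tnc, Thbs1, Thbs2, Thbs4, Ccn1 and Igfbp2) and 5 lower (Tnxb, Smoc1, Igfbp5, Igfbp6 and Igfbp7). Igfbp2, which binds insulin-like growth factors, stood at 1223 CPM, 13.2-fold. Tnxb stood at 205 CPM in the gap arc, 1877 CPM at the rim and 4978 CPM in the outer tissue. The order gap arc, rim, outer tissue held in pieces 1, 2 and 3 (128, 1003 and 4880 CPM; 237, 1319 and 4378 CPM; 462, 506 and 3816 CPM) and in piece 4 (145, 4115 and 6000 CPM). Pi16 followed the same order in pieces 1, 2 and 4, and in piece 3 its gap arc and rim values were 270 and 220 CPM against 1170 CPM in the outer tissue.

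Of 13 complement genes 4 were lower in gap arc members (C3, C4b, C7 and Cfb) and Masp1 was higher. Of 10 genes of the cytokine and chemokine list 4 were lower (Cxcl12, Ccl11, Il33 and the receptor gene Lifr). C3 stood at 28.3 CPM (8 UMIs) in the gap arc, 524 CPM at the rim and 927 CPM in the outer tissue. By piece its gap arc values were 0, 54.6, 0 and 29.0 CPM, under the rim and outer values of each piece, which ran from 57.1 to 1605 CPM. Without the clump of piece 4, described below, C3 stood at 338 CPM at the rim and 642 CPM in the outer tissue. Serping1, the inhibitor of the first complement proteases, stood at 697 CPM in the gap arc, 637 CPM at the rim and 906 CPM in the outer tissue and was not called. Cxcl12, a chemokine that retains leukocytes and progenitors, stood at 7.07 CPM (2 UMIs) against 363 CPM at the rim and 290.2 CPM in the outer tissue. The call for C7 was lost without subclusters 4 and 9.

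**Figure D3:**
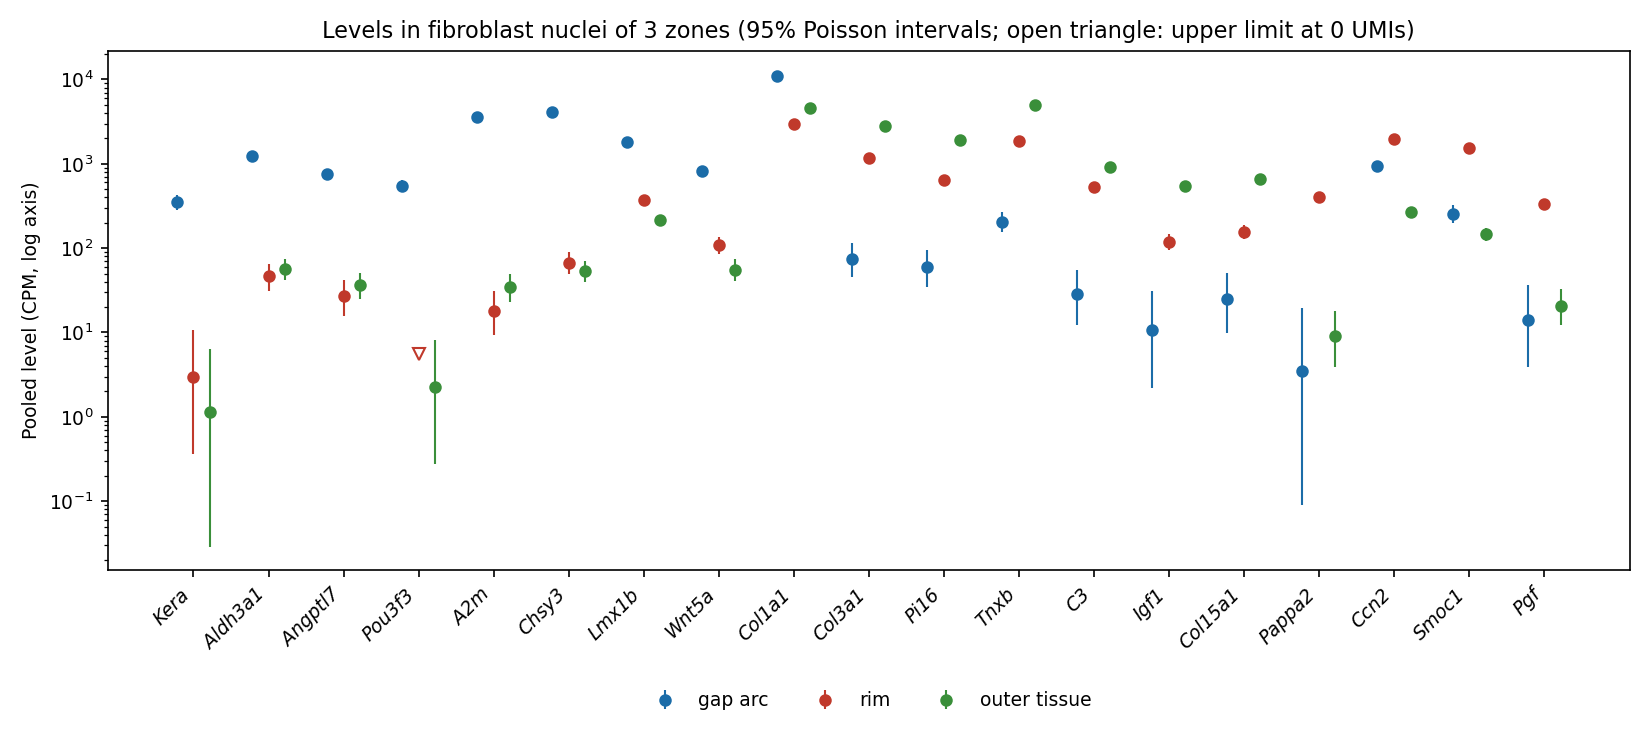
Pooled level (CPM, log axis) of 19 genes in fibroblast nuclei of the gap arc, rim and outer tissue; points are pooled levels, bars are 95% Poisson intervals and the open triangle is the upper limit where a zone had 0 UMIs. The 9 genes on the left are highest in the gap arc, the next 6 are lowest there and highest in the outer tissue, and the last 4 are highest at the rim.

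Rim members, which lay along the RPE ring, were higher than outer members for Pappa2, Pgf, Kitl, Edn3, Smoc1 and Ccn2, and these 6 calls were kept without subcluster 5 and without the clump of nuclei in piece 4, both described below. Pappa2, a protease that cleaves Igfbp5 (ENSMUSG00000073530, chromosome 1, 158711727 to 158960451 in RefSeq's GRCm38 annotation), stood at 405 CPM (358 to 456) at the rim, 9.10 CPM in the outer tissue and 3.54 CPM in the gap arc. Its rim value in pieces 1 to 4 was 85.6, 258, 473 and 791 CPM, above every value of the other zones, which reached 18.6 CPM. Igfbp5 itself stood at 12377 CPM at the rim and 7030 CPM in the outer tissue, a difference short of the call. Of 24 growth factors compared, 3 were higher at the rim than in the outer tissue, with Pgf and Kitl among them. Pgf, a ligand of the VEGF receptor Flt1, stood at 330.2 CPM against 20.5 CPM, 16.1-fold, and at 336, 525, 318 and 127 CPM in the rim of pieces 1 to 4. Kitl, the ligand of Kit on melanocytes and mast cells, stood at 408 CPM against 97.9 CPM, 4.16-fold. Edn3, an endothelin that acts on the melanocyte lineage, stood at 425 CPM against 36.4 CPM, 11.7-fold.

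Among matrix genes, Smoc1, Ccn2 and Thbs1 were the 3 of 24 matricellular genes higher at the rim. Smoc1, a modulator of BMP signalling, stood at 1528 CPM against 146 CPM, 10.5-fold, and its lowest rim value of the 4 pieces, 807 CPM, lay above its highest outer value, 343 CPM. Ccn2, a matrix protein induced by TGF-beta and stretch, stood at 1968 CPM against 269 CPM, 7.33-fold. Its rim values in pieces 1 to 4 were 2202, 2420, 1615 and 1519 CPM. Ccn2 was a leading gene of subcluster 5, described below, at 4088 CPM against 466 CPM in all other members. Of the 118 nuclei of that subcluster, 88 lay at the rim. Col8a1, Col8a2, Col10a1, Col12a1 and Col13a1 were the 5 of 13 fibril-associated and network collagens, and the calls for Col12a1 and Col13a1 were lost without subclusters 4 and 9. Col11a1, Col24a1 and Col27a1 were the 3 of 9 fibrillar collagens. Fbn2 stood at 524 CPM against 55.8 CPM, 9.39-fold, and the laminin chain Lamc3 at 229 CPM against 15.9 CPM. Timp3, an inhibitor of metalloproteases that lodges in the membrane under the RPE, stood at 1666 CPM against 600.2 CPM, 2.78-fold. Of 29 transcription factors, 4 were higher at the rim, with Foxc1, Runx1 and Runx2 among them, and of 17 guidance genes Nrp1 and Nrp2, receptors for semaphorins and VEGF.

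Melanocyte markers moved with the rim. The 5 melanocyte markers summed to 541 CPM in rim members, 60.1 CPM in the gap arc and 29.6 CPM in the outer tissue, and the pigment genes Pmel and Tyrp1 were among the 15 leading rim genes. Mural markers summed to 466 CPM at the rim, 173 CPM in the outer tissue and 91.9 CPM in the gap arc. In melanocyte nuclei Smoc1 stood at 266 CPM, Pappa2 at 145 CPM, Edn3 at 86.3 CPM, Pgf at 61.6 CPM and Kitl at 60.4 CPM. In mural nuclei Pappa2 stood at 24.5 CPM, Edn3 at 196 CPM and Pgf at 61.4 CPM, but Kitl at 420.4 CPM, Nrp1 at 889.9 CPM and Lamc3 at 347 CPM stood near or above the rim level. In adipocyte nuclei Smoc1 stood at 1499.9 CPM, near its rim level of 1528 CPM. The part of melanocyte, mural and adipocyte RNA in the rim calls was not tested.

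Outer members were higher than rim members for Igf1, Postn, Col6a6, Fgf7, Fgf10 and Tnxb, the last 3 not when subcluster 5 was left out. Igf1, insulin-like growth factor 1 (ENSMUSG00000020053), stood at 543 CPM (495 to 594) in the outer tissue against 119 CPM at the rim, 4.56-fold, and at 10.6 CPM (3 UMIs) in the gap arc. Its outer value in pieces 1 to 4 was 763, 586, 514 and 276 CPM, and its rim value 61.2, 111, 106 and 186 CPM. Adipocyte nuclei held 764 CPM of Igf1, and the adipocyte markers of the list summed to 13.7 CPM in outer members. The part of adipocyte RNA in the Igf1 level was not tested. Fgf7 and Fgf10, which act on epithelia, stood at 151 and 162 CPM against 40.2 and 43.1 CPM at the rim. Igf1, Fgf7 and Fgf10 were the 3 of 24 growth factors called in this direction.

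Tnxb, Postn and Smoc2 were the 3 of 24 matricellular genes higher in the outer tissue. Mmp3, Htra1 and Htra3 were the 3 of 21 genes of the list of proteases, inhibitors and related proteins. Tnxb stood 2.65-fold above the rim, Postn (periostin) 4.79-fold and Htra3 3.99-fold. Col6a6, a chain of type VI collagen, stood at 296 CPM against 49.1 CPM, 6.03-fold. Col15a1, of vessel and nerve basement membranes, stood at 668 CPM against 156 CPM, 4.28-fold, with rim values of 6.12, 207, 416 and 63.7 CPM in pieces 1 to 4. Adventitial markers, 8 genes, summed to 3957 CPM in the outer tissue, 1486 CPM at the rim and 576 CPM in the gap arc, where Dpp4 was at 0. Dpp4, a surface peptidase, stood at 177, 127, 228 and 413 CPM in the outer tissue of pieces 1 to 4, and at 0 at the rim of pieces 1 and 3.

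Markers of myelinating glia moved with the outer tissue. Their 5 markers summed to 833 CPM in outer members, 61.0 CPM at the rim and 28.3 CPM in the gap arc, and the glial genes Mbp, Prx and Drp2 were among the 15 leading outer genes. The calls for Mbp, Prx, Drp2, C7, Col15a1 and Smoc2 were lost when subclusters 4 and 9 were left out. Without them Igf1 stood at 608 CPM in the outer tissue and 111 CPM at the rim, and Tnxb at 5130 and 1831 CPM.

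Median log2 differences of the lists by zone were as follows. Gap arc against rim and outer tissue together, the median was 1.56 for fibril-associated and network collagens, -2.05 for Wnt genes, -1.87 for complement and -1.03 for basement membrane genes, beside -0.04 over all genes tested. The Wnt median is negative although more Wnt genes were called higher than lower. Outer tissue against rim, it was 0.90 for basement membrane genes and -1.00 for fibril-associated and network collagens, beside -0.09 over all genes.

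Members were also divided by expression into 9 subclusters, numbered and not named, since clustering used the same genes that describe them. Position was not used. Subcluster 3 (127 nuclei), led by Pou3f3, Rxfp1, A2m and Chsy3, had 118 nuclei in the gap arc. Subcluster 8 (123 nuclei), led by Pappa2, Lamc3 and Alpl, had 104 at the rim, and subcluster 5 (118 nuclei), led by Rgs5 and Chil1 among others, had 88 there. Subcluster 1 (40 nuclei), led by Fmod, Sfrp2, Thbs4 and Prg4, the surface lubricant proteoglycan of joints and tendons, had 34 at the rim. Of its nuclei 11 lay in the clump of piece 4 described below, where 1086 of the Prg4 UMIs of members were found, against 61 in all other members. Subcluster 6 (163 nuclei), led by Kcnq3 and Dpp4, had 138 in the outer tissue, subcluster 2 (99 nuclei), led by Synpr and Thsd7b, 78, and subcluster 7 (67 nuclei), led by Phex, Igf1 and Fgf10, 54.

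The levels described how unlike these groups were. Col1a1 ranged from 1415 CPM in subcluster 8 to 14080 CPM in subcluster 3, and Col3a1 from 19.0 CPM in subcluster 3 to 4756 CPM in subcluster 6. C3 stood at 1718 CPM in subcluster 6, of whose 163 nuclei 49 lay in the clump of piece 4 described below, and at 1232 CPM in subcluster 7. It stood at 9.50 CPM in subcluster 3, 35.0 CPM in subcluster 1 and 55.0 CPM in subcluster 8. Pi16 stood at 3243 CPM in subcluster 6, 2304 CPM in subcluster 2 and 0 in subcluster 3. Myoc (myocilin), a secreted protein of the drainage angle and sclera, stood at 815 CPM in subcluster 5.

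Several subclusters showed genes of other cell types, and only subclusters 4, 5 and 9 were left out as alternatives. Mural markers summed to 737 CPM in subcluster 8 and 596 CPM in subcluster 2, against 482 CPM in subcluster 5. Melanocyte markers summed to 385 CPM in subcluster 8, and the endothelial marker Flt1 was among the leading genes of subcluster 2. The part of such RNA in the calls was not tested for subclusters 2 and 8. Subcluster 4 (113 nuclei, 103 of them in the outer tissue) had Mbp and Prx among its leading genes, and 11 of its nuclei met the rule for myelinating glia. Its Pdgfra level, 827 CPM, was the highest of the 9 subclusters. Subcluster 9 (40 nuclei) was led by rod genes such as Sag and Rpgrip1, and 16 of its nuclei met the rod rule. Leaving out subclusters 4 and 9 left 737 members, and the calls then numbered 161 for fibroblast-high genes, 185 and 235 for genes higher and lower in the gap arc, 115 for the outer tissue and 192 for the rim. Of the original calls 149 of 159, 168 of 179, 205 of 239, 80 of 109 and 147 of 171 were kept.

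Subcluster 5 held Rgs5, a mural gene, and Cd74, an antigen presentation gene, among its leading genes, 13 of its nuclei met the rule of another class, and its melanocyte markers summed to 922 CPM. Without it 130 genes were higher at the rim, 117 of them among the original 171, and 42 were higher in the outer tissue, 37 of them among the original 109. The calls lost included Fgf7, Fgf10, Tnxb and Htra1 in the outer tissue, Thbs1, Col12a1, Timp3 and Nrp1 at the rim, and Ccn1 in the gap arc. Genes higher and lower in the gap arc numbered 187 and 312 without it.

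**Figure D4:**
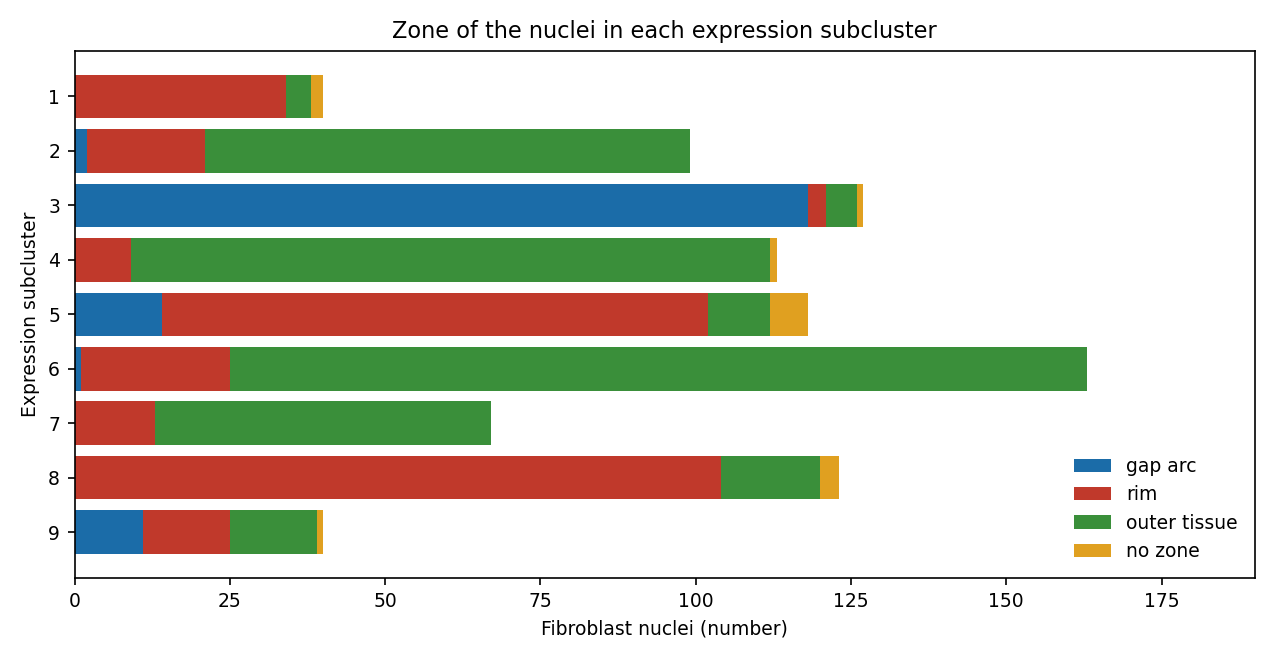
Number of fibroblast nuclei of each expression subcluster (rows) in the gap arc, rim, outer tissue and no zone (colours). Subcluster 3 holds 118 of the 146 gap arc nuclei, subclusters 5 and 8 lie mostly at the rim, and subclusters 2, 4, 6 and 7 mostly in the outer tissue.

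Values of the 4 pieces are given side by side, since the labels give no piece a group. The pieces held 246, 267, 147 and 230 members. Of 9612 genes, 212 differed between the highest and the lowest piece by the bound rule (2.21%). Pieces drawn by k-means on the coordinates, as first planned, gave 234 (2.43%), but these cut the right side of the ring of piece 2 into piece 3. C3 stood at 539, 439.5, 169 and 1152 CPM in pieces 1 to 4, C4b at 202, 138, 231 and 432 CPM, and Cfb, the factor that forms the alternative convertase with C3, at 48.6, 46.7, 66.0 and 274 CPM. Of 13 complement genes, C3, C4b, C7 and Cfb were among the 212. C4b cannot be told from its close paralogue C4a where reads fit both.

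The high values of piece 4 lay in a clump of 85 members at its left edge, whose limits were read off the map after it had been seen. In the clump C3 stood at 2149 CPM (1964 to 2347), against 376 CPM in the other 145 members of piece 4. Members outside the clump stood at 417 CPM. C4b stood at 855 CPM in the clump and 102 CPM in the rest of piece 4, Cfb at 612 and 10.2 CPM, and the acute phase inhibitor Serpina3n at 668 and 102 CPM. Genes of antigen presentation were high too: H2-K1 stood at 751 CPM in the clump against 86.1 CPM in all other members, H2-D1 at 959 against 145 CPM, and B2m at 989.7 against 146 CPM. Prg4 showed the widest gap, with 1086 of its 1147 UMIs in the clump (4714 CPM) and 37.3 CPM in all other members.

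In all, 97 of 9612 genes were higher in the clump than in all other members (1.01%), and 50 of these were among the 212 that differed between pieces. Without the clump 134 of 9225 genes differed between pieces (1.45%), 112 of them shared with the 212. Of the clump members 49 belonged to subcluster 6, 12 to subcluster 4 and 11 to subcluster 1, and 50 lay in the outer tissue and 35 at the rim. The same area held 628 kept nuclei, among them 246 rods, 50 RPE nuclei, 33 of the 180 macrophage nuclei and 0 adipocyte nuclei. The rim level of Prg4 (1009.9 CPM) and of Thbs4 (413 CPM, with 1232 CPM in piece 4) came largely from the clump, since the rim of all pieces without it stood at 8.63 and 102 CPM. Without the clump 176 genes were higher at the rim and 152 in the outer tissue, with 159 of the original 171 and 101 of the original 109 among them. Fibroblast-high genes then numbered 153, with 145 of the original 159 among them.

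**Figure D5:**
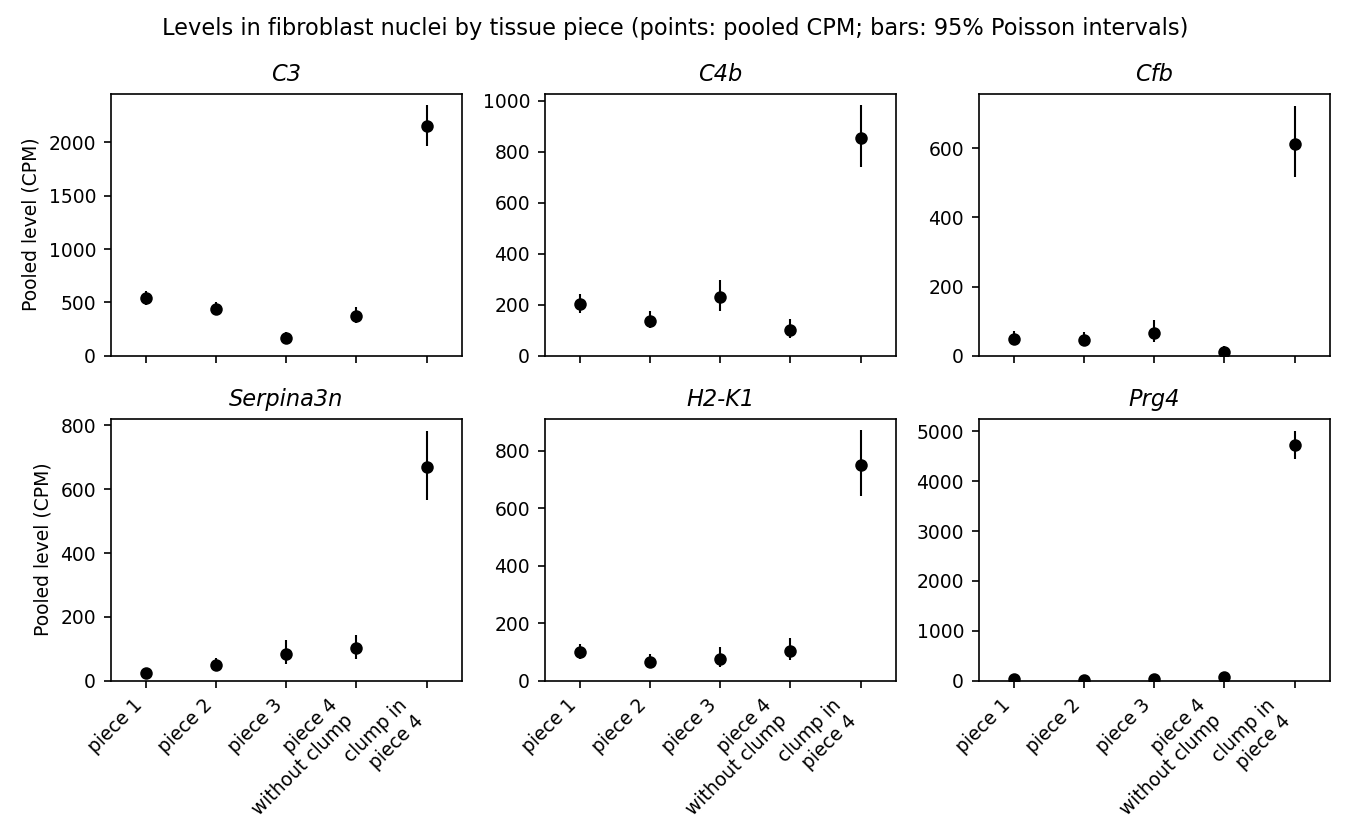
Pooled level (CPM) of C3, C4b, Cfb, Serpina3n, H2-K1 and Prg4 in fibroblast nuclei of pieces 1 to 3, of piece 4 without the clump, and of the clump of 85 nuclei in piece 4; points are pooled levels and bars 95% Poisson intervals. All 6 genes are highest in the clump, and piece 4 without it stays at or under 376 CPM.

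Xist, the RNA that coats the inactive X chromosome, also separated the pieces, at 5.40, 38.9, 99.0 and 877 CPM in members of pieces 1 to 4. Rods of the same pieces stood at 69.7, 80.5, 84.9 and 768 CPM and all other nuclei at 45.7, 58.9, 38.5 and 887 CPM. Adipocyte nuclei had 0 Xist UMIs in pieces 1, 2 and 3 and 209 UMIs (1021 CPM) in piece 4, so piece 4 stood apart in every class given here. In piece 4 Xist stood at 794 CPM in the clump and 941 CPM in the other members. Whether the pieces come from 1 eye, or from animals of 1 sex, was not tested. Differences of piece 4 from the other pieces cannot be told apart from the Xist difference, and each difference between pieces stands on 1 piece of tissue.

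A planned contrast of distance, within members outside the RPE ring as drawn by angle, was also made. When these members were cut by distance into 3 equal parts and the outermost was set against the innermost, 27 of 6841 genes were higher far from the RPE (0.395%) and 38 were higher near it (0.555%). With pieces and ring from the fitted circles the counts were 74 and 122. Igf1, Col15a1 and Col6a6 were among the first and Pappa2, Pgf, Smoc1 and Ccn2 among the second, all also called between rim and outer tissue, which uses the same nuclei. With this ring, whose centre shifts where RPE nuclei are missing, the median member lay 848 units outside it, and 510.1, 1224, 583 and 1108 units in the 4 k-means pieces.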

How the data were processed

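Nuclei of T1 were measured by SeekSpace. The deposited expression matrix holds the authors' raw UMI counts per gene and barcode, and a deposited table places each barcode at 1 point, in other units. Per the submitters' processing notes, fastp, STAR, Seurat 4.1.1 and mm10 were used; the sources used here give no role, annotation, strand setting, intron counting or cell calling. Gene positions are RefSeq's for GRCm38, matched by symbol.

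Computation used scanpy 1.11.5 with igraph 0.11.9 and scikit-learn 1.9.0, scipy 1.17.1 for intervals, and pandas 2.3.3, numpy 2.4.6 and matplotlib 3.10.9 under python 3.11.15. Scrublet, a doublet caller, marked 0 kept nuclei (up to 0.0178% by 3 counts) and had not worked, so doublets remain. Levels carry exact Poisson and shares Clopper-Pearson 95% intervals. Comparison classes needed 5 UMIs and 0.3% (rods 1%) of their markers, and 1 class only. Subclusters came from Leiden clustering at resolution 0.5 (2000 variable genes, 20 components, 15 neighbours). Calls were tested on simulated Poisson counts drawn from the pooled member profile. These follow the model of the intervals and hold no spread between nuclei or pieces, no stray RNA and no doublets. The simulation therefore cannot show how those affect the calls. Members and lists were chosen with earlier results of these data known. Named genes are the markers, up to 8 members of each of 16 lists by level, list members called, the 15 leading genes per comparison and the leading genes of subclusters. Results for some genes are not reported here.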

Additional observations from a re-analysis of the deposited data

How the results depend on the processing

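No paired analysis was possible because T1 has no group and no replicate. Over 14 results and 199 alternatives, 147 kept their value, 52 moved and 0 reversed, although counts, shares and levels have no direction that could reverse. Kept meant within 1.5 times for counts of genes or subclusters, and within counting error for the member share and C3 level. For the neighbour ratio it meant 2.54 to 4.20, and for the distance 510.1 to 1224 units, the lowest and highest median of the k-means pieces. Fibroblast-high genes numbered 83 at a factor of 3 and 38 with nuclei thinned to 500 UMIs, and lower genes 8 and 1. With a factor of 3, gap arc lower genes numbered 137, outer 25, rim 77, far 13, near 17 and between pieces 88; thinned, gap arc higher genes numbered 73, lower 92, outer 31, rim 69, far 8, near 6 and between pieces 31. Far and near counts were 12 and 15 at a marker share of 0.5%, 17 and 23 with 0 exclusion UMIs, and 74 and 122 with fitted circles; a cut into 2 parts gave 14 far, and leaving out subclusters 4 and 9 gave 25 near. Outer genes numbered 62 at 10 marker UMIs and 42 without subcluster 5. Without the clump 134 genes differed between pieces. The member share was 6.18% at 3 marker UMIs, 3.47% at 10, 4.13% at a share of 0.5%, 4.58% with 0 exclusion UMIs and 4.41% without subclusters 4 and 9. The neighbour ratio was 4.69 at 10 UMIs or a share of 0.5%, and 4.23 without those subclusters. C3 stood at 698 CPM with 10 marker UMIs, 795 at a share of 0.5%, 669 without nuclei of several classes, 583 thinned, 562 as a mean over nuclei, 729 over totals without mitochondrial genes and Gm42418, and 417 without the clump. Leaving out each k-means piece in turn, fibroblast-high genes ranged from 115 to 163, lower genes from 10 to 16, far from 26 to 45, near from 27 to 75; the distance ranged from 718 to 1082 units, the neighbour ratio from 3.33 to 3.97, the share from 4.92 to 5.68% and C3 from 420 to 735 CPM. Leaving out each piece of the fitted circles, gap arc higher genes ranged from 159 to 208, lower from 180 to 259, outer from 78 to 148 and rim from 133 to 189. Without piece 4, lower genes were 10, far 45, near 75 and C3 420 CPM.

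Limits are those of 1 library: no group, no replicate, and pieces of unknown origin. Fewer cells of a kind and fewer of their nuclei recovered cannot be told apart. Positions put rods outside the ring, so zones mix. Depth limits genes near 20 UMIs, and in the gap arc, with the fewest UMIs, a level of 0 allows up to 13.04 CPM. The circles, the clump limits and the doubt about subclusters 4, 5 and 9 were set after seeing the data.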
